A study of Mus musculus with 9 samples.

Results

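The genes described here were 3 forkhead box O (FOXO) transcription factors, *Foxo1*, *Foxo3* and *Foxo4*, and 7 genes of autophagy and its control, *Sesn1*, *Ulk1*, *Becn1*, *Map1lc3b*, *Sqstm1*, *Gabarapl1* and *Tfeb*. They were chosen by name, as 10 of the 55471 genes listed for each culture, with earlier results of these data known. All 10 were detected and passed the filter on low counts. RNA was sequenced from 9 cultures, 3 in each of 3 groups, of chondrocytes, the cartilage cells, isolated from the knee joint surfaces (femoral condyles, tibial plateaus) of wild-type mice at postnatal day 5. All were grown on plates coated with COLpep, a collagen peptide that binds the osteoclast-associated receptor OSCAR. Ad-Control cultures received a control adenovirus and no 5-ASA. Ad-OSCAR cultures received an adenovirus carrying *Oscar*. The remaining group received Ad-OSCAR followed by 5-aminosalicylic acid (5-ASA), the anti-inflammatory drug mesalamine. The sample annotations give 3 days of culture, 2 h of infection at 400 MOI and 36 h before 5-ASA. The published methods differ from the annotations on the days of culture, on the hours that followed infection and on the amount of virus. A group that received the control virus together with 5-ASA was not analysed here, so the drug was compared only in cells that carried Ad-OSCAR. The annotations number the replicates but do not say whether they came from separate animals, so the p-values below measure the spread between these cultures only.

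Autophagy delivers cytoplasmic material to lysosomes in double-membraned vesicles. Starvation or stress activates the ULK1 kinase and the Beclin 1 lipid kinase complex, proteins of the ATG8 family are then attached to the growing membrane, and receptors such as p62 bind both the cargo and the ATG8 proteins. FOXO factors are held in the cytoplasm by AKT phosphorylation and, when nuclear, switch on antioxidant, sestrin and autophagy genes, and TFEB does the same for lysosomal genes. In cartilage, FOXO factors and autophagy are known as parts of normal chondrocyte maintenance that decline with ageing and osteoarthritis.

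RefSeq promoter windows (GRCm38.p6, 250 bases before to 50 after the start of transcription) were matched for 8 of the 10 genes, 11 windows in all, and were searched on both strands for motifs of the factors named here. Only 2 of these windows held a match, and the 30 bases around each are shown with the match in capitals. The first is the FOXO element GTAAACA, read from the opposite strand, in *Sesn1*, itself known as a FOXO target. The second is a match to the letters TGACNNNGC of the antioxidant response element, the motif of the stress factor NRF2, in *Map1lc3b*.
*Sesn1*, chr10:41810585-41810614, plus strand: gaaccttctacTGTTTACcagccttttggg
*Map1lc3b*, chr8:121590432-121590461, plus strand: gcgagtcaccTGACTCGGCtgcggactgag
The match in *Sesn1* lay 23 to 29 bases after the RefSeq start and in the 5′ untranslated part of exon 1 of a GENCODE transcript of the gene. That in *Map1lc3b* lay 5 to 13 bases after the start and likewise in the 5′ untranslated part of exon 1. Of all 32851 promoter windows of this length, 3.65% held the FOXO element and 12.4% held the antioxidant element. The shorter FOXO core GTAAAC, which lies inside the longer element, was in 7.89% of windows and, of the members, in *Sesn1* only. The lysosomal CLEAR motif, a 10-base palindrome (0.326% of windows), its E-box core CACGTG (7.15%) and the cAMP response element TGACGTCA (1.79%) were in none of the 11 windows. A match is only a run of letters, and binding was not measured.

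Each culture held between 19733448 and 28192740 counts. *Oscar* was at 3 to 4 counts in Ad-Control, 173445 to 187278 in Ad-OSCAR and 80766 to 94199 in the 5-ASA-treated cultures. Of 14 chondrocyte marker genes, 14 fell with Ad-OSCAR, and their summed level went from 16010 to 18160 TPM (RSEM's transcript abundance, a level per transcript length) in Ad-Control to 1064 to 1220 in Ad-OSCAR and 1237 to 1439 with 5-ASA. The sum of 9 fibroblast or synovial markers was 7155 to 7346, 6339 to 6626 and 7048 to 7223 TPM in the 3 groups, but of 8 tested 2 rose (*Dcn*, 1688 to 1807 against 3714 to 3979 TPM, and *Prg4*, 143 to 158 against 504 to 549) and 6 fell with OSCAR. That of 6 osteoblast markers was 49.5 to 56.7, 13.1 to 20.1 and 23.2 to 24.8. Of the 3 osteoblast markers that could be tested, 3 fell with OSCAR. The low *Bglap* (0.71 to 1.3 against 1.5 to 1.94 TPM) and *Bglap2* (0 to 0.66 against 1.37 to 2.95) were higher with OSCAR. Endothelial and erythroid markers stayed below 1 TPM in sum in every culture. In bulk RNA, fewer cells of a type and less RNA per cell cannot be told apart, and the part of these marker differences in the values below was not tested.

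Every one of the 10 genes differed between Ad-OSCAR and Ad-Control cultures, 7 being higher and 3 lower at an adjusted p below 0.05 (edgeR's quasi-likelihood test, Benjamini-Hochberg adjustment over 15362 genes). In that comparison, however, 65.0% of all genes tested were called, 32.7% as higher and 32.2% as lower. The 7 higher genes include *Map1lc3b*, whose rise is not seen in its reads summed with an overlapping gene, as given below. None of the 10 passed the study's limits of a log2 fold change beyond 1.5 with that adjusted p, which 9.96% of all genes did. The CPM values (counts relative to the library's total, scaled by edgeR's TMM method) of the 3 Ad-OSCAR and the 3 Ad-Control cultures did not overlap for 10 of the 10 genes, and for 69.0% of all genes. The median size of the log2 fold change was 0.37 for the 10 genes and 0.38 for all genes. As a group the 10 genes therefore moved about as much as the median gene, and the differences lay between members, from a fall of *Sesn1* to a rise of *Sqstm1*. When 5-ASA was added to Ad-OSCAR cells, 1 of the 10 was called, *Sesn1*, against 17.8% of all genes (10.4% called higher and 7.38% lower).

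**Figure D1:**
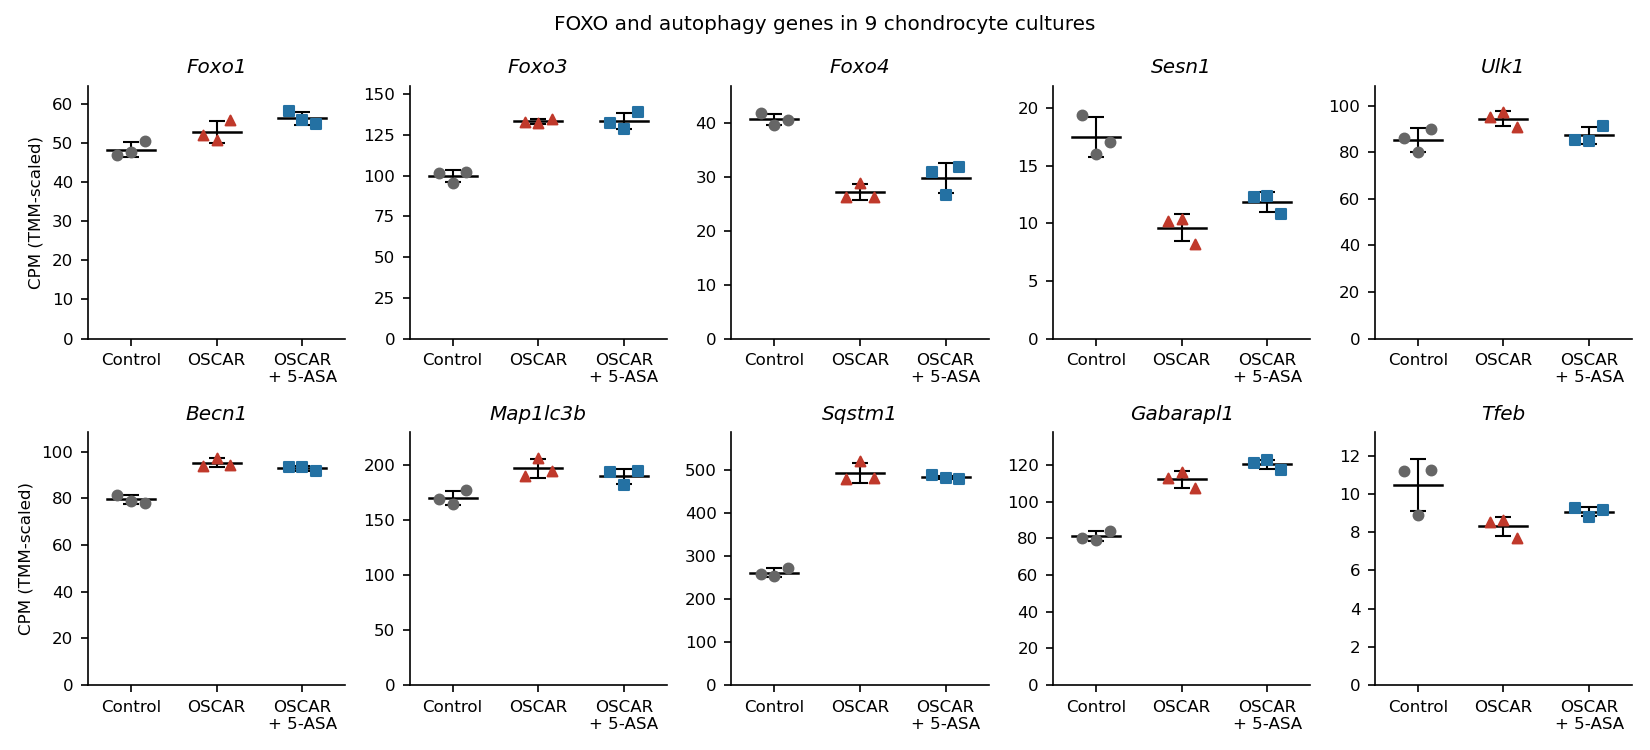
Level of each gene in CPM (TMM-scaled, vertical axes from 0) in the 9 cultures, with Ad-Control as grey circles, Ad-OSCAR as red triangles and Ad-OSCAR with 5-ASA as blue squares, and the mean and SD of 3 cultures as lines. The red points lie apart from the grey ones in all 10 panels, and the blue points lie apart from the red ones only for *Sesn1*, *Gabarapl1*, *Tfeb* (higher) and *Becn1* (lower).

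Per transcript length, *Sqstm1* was the most abundant of the 10 in Ad-Control cultures, at 263 ± 12.5 TPM (SD, n = 3), higher than 96.9% of the genes tested. It was followed by *Map1lc3b* at 175 ± 6.13, *Becn1* at 98.8 ± 1.54, *Gabarapl1* at 82.7 ± 2.21 and *Ulk1* at 38.3 ± 2.01 TPM. *Foxo3* (25.2 ± 1.12) and *Foxo4* (22.7 ± 0.789) came next, and the values of all these neighbours were separate. *Sesn1* (10.5 ± 0.818), *Tfeb* (9.81 ± 1.41) and *Foxo1* (9.39 ± 0.353) formed the low end, where each gene overlapped the next. The genes of the autophagy machinery thus lay above those of the transcription factors in TPM. In Ad-OSCAR cultures *Sqstm1* led at 509 ± 13.0 TPM, the values of all neighbours were separate, and *Foxo1* (10.5 ± 0.698) now stood above *Tfeb* (7.70 ± 0.155) and *Sesn1* (5.61 ± 0.519). With 5-ASA the order differed in 1 place, where *Gabarapl1* (116.5 ± 1.19) and *Becn1* (111 ± 5.99) overlapped.

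The 3 FOXO factors did not move together. *Foxo3* (ENSMUSG00000048756.11; chr10:42181841-42276755 of GRCm38, minus strand), the most abundant FOXO gene in all groups, was at 101.5, 95.8 and 102.5 CPM in the Ad-Control cultures and at 133, 132 and 135 in the Ad-OSCAR cultures. All 3 OSCAR-expressing cultures stood above all controls, with a log2 fold change of 0.42 (standard error, SE, 0.047, adjusted p = 3.13e-07, edgeR). With 5-ASA it was at 133, 129 and 139 CPM, around the untreated values, and the log2 difference of 0.0001 had a 95% interval from -0.10 to 0.10. *Foxo4* (ENSMUSG00000042903.8; chrX:101254528-101260873, plus strand) went the other way, from 41.8, 39.7 and 40.6 CPM to 26.4, 28.8 and 26.2, so that every Ad-OSCAR culture was below every control. Its log2 fold change was -0.59 (SE 0.065, adjusted p = 2.83e-07, edgeR).

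With 5-ASA *Foxo4* was at 31.0, 26.6 and 31.8 CPM, 2 cultures above and 1 within the Ad-OSCAR values, and the log2 difference of 0.14 (adjusted p = 0.177, edgeR) did not pass the test. It passed without the second 5-ASA culture, at 0.21 (adjusted p = 0.0233, edgeR), with other alternatives giving adjusted p up to 1.0. *Foxo1* (ENSMUSG00000044167.6; chr3:52268336-52353221, plus strand), the FOXO gene with the lowest TPM, was at 46.9, 47.8 and 50.5 CPM in Ad-Control and at 52.0, 50.8 and 56.1 in Ad-OSCAR. The groups were separate by a narrow margin, and the log2 fold change of 0.13 (adjusted p = 0.0347, edgeR) was past the threshold in 12 of 21 alternative fits, with adjusted p from 0.000316 to 0.15. It was lost without Ad-Control culture 1 or 2 (log2 fold changes 0.11 and 0.12), without Ad-OSCAR culture 3 (0.09), with DESeq2 (0.12) and with another edgeR scaling (RLE, 0.12), among others. With 5-ASA, *Foxo1* was at 58.2, 56.0 and 54.9 CPM, a log2 fold change of 0.22 against Ad-Control (adjusted p = 0.0012, edgeR). *Foxo6*, the remaining mouse FOXO gene, was too low to be tested, at 0.214 CPM on average in Ad-Control.

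Since these genes are read from the same libraries, the balance between them could be followed within each culture, free of the scaling. The ratio of *Foxo3* to *Foxo4* in TPM was 1.07, 1.09 and 1.18 in the Ad-Control cultures, 2.16, 2.04 and 2.18 in the Ad-OSCAR cultures, and 1.91, 2.17 and 1.94 with 5-ASA. The 2 factors were thus near parity in control cells, whereas *Foxo3* was about 2 times as high once OSCAR was expressed, 2.13 ± 0.0714 against 1.11 ± 0.0573 (SD, n = 3). The exact 2-sided permutation p was 0.10, the smallest that 3 against 3 cultures allow. The ratio of *Foxo1* to *Foxo4* went from 0.414 ± 0.027 to 0.655 ± 0.0458 and was 0.652 ± 0.0709 with 5-ASA (SD, n = 3), and that of *Foxo3* to *Foxo1* from 2.69 ± 0.102 to 3.25 ± 0.129 and 3.09 ± 0.175. The 5-ASA-treated and untreated OSCAR-expressing cultures overlapped in each of these ratios, which were chosen after the values had been seen.

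**Figure D2:**
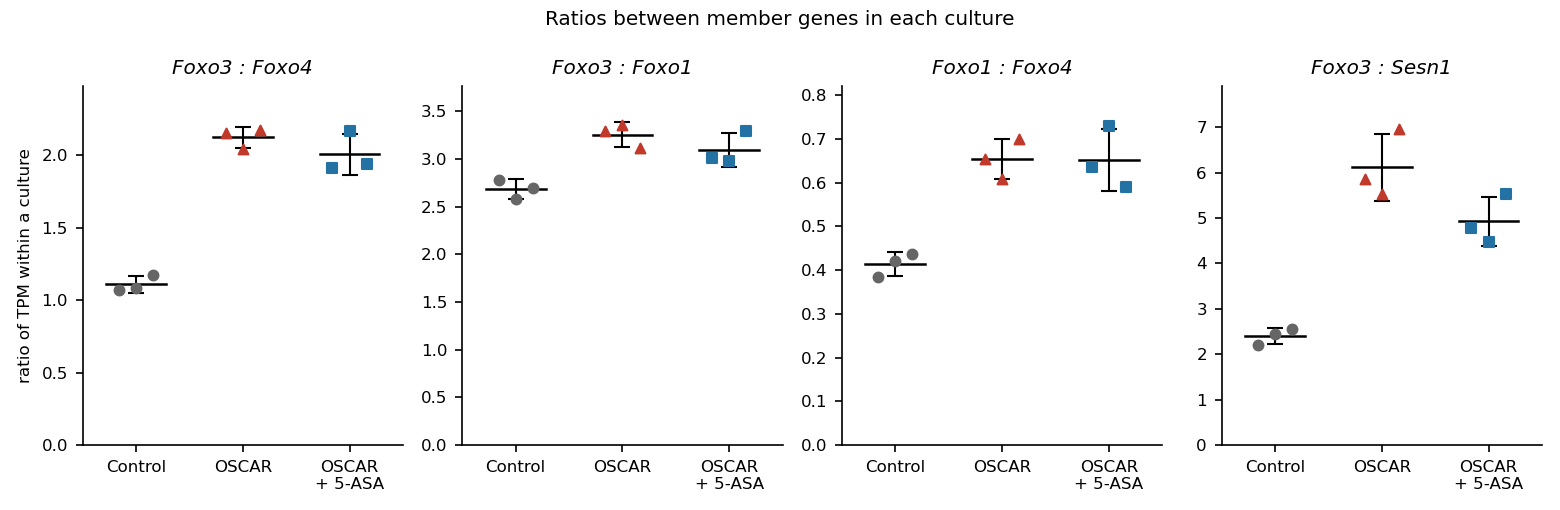
Ratio of 2 genes' TPM within each culture (vertical axes from 0), with Ad-Control as grey circles, Ad-OSCAR as red triangles and Ad-OSCAR with 5-ASA as blue squares, and the mean and SD of 3 cultures as lines. *Foxo3* to *Foxo4* is at 1.07 to 1.18 in Ad-Control and at 1.91 or above in the other 6 cultures, and *Foxo3* to *Sesn1* is at 2.21 to 2.57 in Ad-Control and at 4.48 or above in the others.

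*Sesn1* (ENSMUSG00000038332.13; chr10:41809935-41908424, plus strand), which encodes the stress sensor sestrin 1, an inhibitor of the growth kinase complex mTORC1, fell most of the 10. It was at 19.4, 16.03 and 17.1 CPM in Ad-Control and at 10.2, 10.4 and 8.26 in Ad-OSCAR cultures. The log2 fold change was -0.86 (SE 0.099, 95% interval from -1.07 to -0.65, adjusted p = 4.49e-07, edgeR), larger in size than that of 77.9% of the genes tested. With 5-ASA *Sesn1* was at 12.3, 12.4 and 10.8 CPM, above every untreated Ad-OSCAR culture and below every control. It was the single member called for the drug, with a log2 fold change of 0.30 (SE 0.101, 95% interval from 0.09 to 0.51, adjusted p = 0.0482, edgeR). That call stood just under the threshold and held in 10 of 21 alternative fits, in which the log2 fold change ranged from 0.20 to 0.36 and the adjusted p from 0.0165 to 0.284. It was lost without Ad-Control culture 3 (0.30), Ad-OSCAR culture 1 or 3 (0.34 and 0.20) or 5-ASA-treated culture 1 or 2 (0.27 and 0.27). It was also lost with upper-quartile scaling (0.29), total counts (0.23), DESeq2 (0.30) and the fits on TPM (0.20 to 0.23).

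The mean length of the *Sesn1* transcripts, weighted by their abundance, was 2925 ± 46.7 bases in Ad-Control and 3062 ± 81.3 in Ad-OSCAR cultures (SD, n = 3), without overlap and with an exact 2-sided permutation p of 0.10, the smallest possible. Such a separation was found in 16.6% of the 12360 tested genes whose mean length varied between the cultures, and among the members also in *Map1lc3b* and *Gabarapl1*. The transcript with the longer or shorter form was not identified from these values. The other sestrins took different courses. *Sesn2*, the sestrin that senses leucine, was at 76.8 ± 4.41, 92.3 ± 4.07 and 112 ± 4.18 CPM in Ad-Control, Ad-OSCAR and 5-ASA-treated cultures (SD, n = 3). It rose with OSCAR (log2 fold change 0.26, adjusted p = 0.000299, edgeR) and again with 5-ASA (0.28, adjusted p = 0.00084, edgeR), though not on the TPM scale at 0.05 in 2 of 3 fits (0.19, adjusted p = 0.0518, and 0.19, adjusted p = 0.0797, limma). *Sesn3*, known as a FOXO target, was at 175 ± 2.13, 135 ± 3.39 and 121 ± 4.86 CPM. It fell with OSCAR (-0.37, adjusted p = 8.98e-07, edgeR) and with 5-ASA (-0.16, adjusted p = 0.0213, edgeR), a second call lost in 4 fits that each left out 1 OSCAR-expressing culture, with adjusted p from 0.0517 to 0.128. For *Sesn1* the changes with the receptor and with the drug thus had opposite signs, and for *Sesn2* and *Sesn3* the same sign.

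Both members that act at the start of autophagy, *Becn1* and *Ulk1*, rose slightly with OSCAR, while the related gene *Ulk2* fell. *Becn1* (ENSMUSG00000035086.13; chr11:101285952-101302286, minus strand), the Beclin 1 subunit of the class III PI3 kinase, was at 81.4, 79.0 and 78.0 CPM in Ad-Control and 94.0, 97.3 and 94.0 in Ad-OSCAR cultures. The groups were well apart for a small difference, a log2 fold change of 0.26 (SE 0.044, adjusted p = 4.97e-05, edgeR). *Ulk1* (ENSMUSG00000029512.11; chr5:110784488-110810097, minus strand), the kinase that initiates autophagy, was at 86.1, 80.1 and 89.96 CPM and then at 95.1, 97.5 and 91.0. The lowest Ad-OSCAR culture was hardly above the highest control, and the log2 fold change of 0.15 (adjusted p = 0.0199, edgeR) was lost without the second Ad-Control culture (0.10, adjusted p = 0.133) or the second Ad-OSCAR culture (0.13, adjusted p = 0.0723).

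With 5-ASA *Becn1* was at 93.3, 93.4 and 91.7 CPM, below every untreated Ad-OSCAR value, but the log2 difference was only -0.04 (95% interval from -0.13 to 0.06). *Ulk1* was at 85.5, 85.0 and 91.4 CPM, with 2 cultures below and 1 within the untreated range. Its log2 difference of -0.11 had an unadjusted p of 0.0419 and an adjusted p of 0.146 (edgeR), and against Ad-Control it was 0.03 (95% interval from -0.08 to 0.15). For *Ulk1* the choice of scale mattered, since the fall with 5-ASA passed the test with scaling by total counts (-0.19, adjusted p = 0.0145) and on the TPM scale (-0.23, adjusted p = 0.0345, limma). The related kinase gene *Ulk2* fell with OSCAR, from 58.3 ± 1.24 to 49.8 ± 2.704 CPM (SD, n = 3; log2 fold change -0.23, adjusted p = 0.000999, edgeR), except with scaling by total counts, where -0.10 did not pass.

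The ATG8 family also split. *Gabarapl1* (ENSMUSG00000030161.8; chr6:129533160-129542346, plus strand), a GABARAP-type ATG8 protein and known FOXO3 target, was at 80.4, 79.1 and 84.3 CPM in Ad-Control and 113, 116 and 107 in Ad-OSCAR cultures. All OSCAR-expressing cultures were higher, by a log2 fold change of 0.46 (SE 0.048, adjusted p = 1.1e-07, edgeR). With 5-ASA it was at 121, 123 and 117 CPM, above all untreated values, with a log2 difference of 0.10 (95% interval from 0.003 to 0.20) whose unadjusted p was 0.0441 and adjusted p 0.151 (edgeR). On the TPM scale the treated and untreated cultures overlapped, at 115.5 to 117.8 and 111.9 to 117.4.

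*Map1lc3b* (ENSMUSG00000031812.16; chr8:121590361-121598760, plus strand), which encodes LC3B, the usual marker protein of autophagosomes, was at 169, 165 and 178 CPM, then 191, 207 and 195, and with 5-ASA at 194, 182 and 195. Taken alone it rose with OSCAR (log2 fold change 0.21, SE 0.048, adjusted p = 0.000865, edgeR). Its reads are not its own, however, since the annotated gene *Gm20388* covers the whole of *Map1lc3b* on the same strand and RSEM divided reads between them. *Gm20388* received 41.9% to 48.2% of the pair's counts in Ad-Control, 34.3% to 40.6% in Ad-OSCAR and 38.8% to 43.0% with 5-ASA. The sum of both was 300.3 to 326.7 CPM in Ad-Control, 292.2 to 327.4 in Ad-OSCAR and 303.9 to 341.6 with 5-ASA, groups that overlapped throughout. *Gm20388* itself fell with OSCAR by the same test (log2 fold change -0.30, adjusted p = 0.0092, edgeR). The level of *Map1lc3b* is therefore uncertain, and its rise is not seen in the summed reads of both genes.

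The other ATG8 genes moved in both directions, and whether they share reads with other genes was not tested. *Gabarap*, the most abundant ATG8 gene at 597 ± 26.2 TPM in Ad-Control (SD, n = 3), fell with OSCAR (log2 fold change -0.24, adjusted p = 0.000175, edgeR) and further with 5-ASA (-0.14, adjusted p = 0.0441, edgeR), the second call being lost in 8 of 21 alternative fits with adjusted p up to 0.145. *Map1lc3a* fell from 48.6 ± 5.11 to 37.0 ± 2.77 CPM (-0.39, adjusted p = 0.000217, edgeR), while *Gabarapl2* rose from 54.4 ± 2.69 to 66.9 ± 3.52 (0.30, adjusted p = 8.79e-05, edgeR). With 5-ASA neither passed, at 0.17 (adjusted p = 0.146) and -0.05 (adjusted p = 0.586, edgeR). In TPM, *Gabarap* in Ad-OSCAR cultures (512 ± 21.5) was still above *Map1lc3b*, *Gabarapl1* (115.5 ± 3.17) and *Gabarapl2* (111.5 ± 5.63).

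*Sqstm1* (ENSMUSG00000015837.15; chr11:50199366-50210827, minus strand), which encodes the cargo receptor p62 and is a known target of NRF2, had the largest rise of the 10. It was at 258, 253 and 273 CPM in Ad-Control and at 479, 521 and 483 in Ad-OSCAR cultures. The lowest Ad-OSCAR value was far above the highest control, with a 1.89-fold difference (log2 fold change 0.92, SE 0.046, 95% interval from 0.82 to 1.02, adjusted p = 3.62e-12, edgeR). Its size exceeded that of 79.8% of the genes tested. With 5-ASA the 3 cultures were at 488, 482 and 480.5 CPM, inside the untreated range, and the log2 difference was -0.03 (95% interval from -0.13 to 0.06, adjusted p = 0.701, edgeR). In TPM, however, the treated cultures (462.3 to 467.9) lay below all untreated ones (499.7 to 524.2), at a log2 difference of -0.13 that did not pass (adjusted p = 0.0653, limma). Against Ad-Control, *Sqstm1* in treated cells had a log2 fold change of 0.89 and was the 1 member of 10 past the study's limits of a 1.5-fold change and an unadjusted p below 0.05, which 29.9% of all genes passed in that comparison.

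*Tfeb* (ENSMUSG00000023990.18; chr17:47737030-47792419, plus strand), which encodes a master regulator of lysosomal genes, was at 11.2, 8.88 and 11.3 CPM in Ad-Control and at 8.52, 8.65 and 7.71 in Ad-OSCAR cultures. The second control lay close to the Ad-OSCAR values, and the log2 fold change was -0.33 (SE 0.1004, adjusted p = 0.00859, edgeR), lost with scaling by total counts (-0.20, adjusted p = 0.0837) and in 1 fit on TPM (-0.31, adjusted p = 0.0505, limma). With 5-ASA it was at 9.27, 8.79 and 9.13 CPM, just above the untreated cultures, but the log2 difference of 0.13 did not pass (95% interval from -0.08 to 0.34, adjusted p = 0.425, edgeR). Its relatives rose. *Mitf* went from 33.97 ± 1.95 to 55.5 ± 3.14 CPM (SD, n = 3; log2 fold change 0.71, adjusted p = 2.28e-09, edgeR) and *Tfe3* from 79.2 ± 2.17 to 88.0 ± 1.98 (0.15, adjusted p = 0.00781, edgeR). Both kept this direction in every alternative fit, and with 5-ASA they were at 56.6 ± 0.986 and 86.4 ± 2.91 CPM. In TPM, *Mitf* and *Tfe3* in Ad-OSCAR cultures stood at 25.6 ± 1.3 and 63.4 ± 4.94, above *Tfeb* at 7.70 ± 0.155. *Tfec* was too low to be tested.

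**Figure D3:**
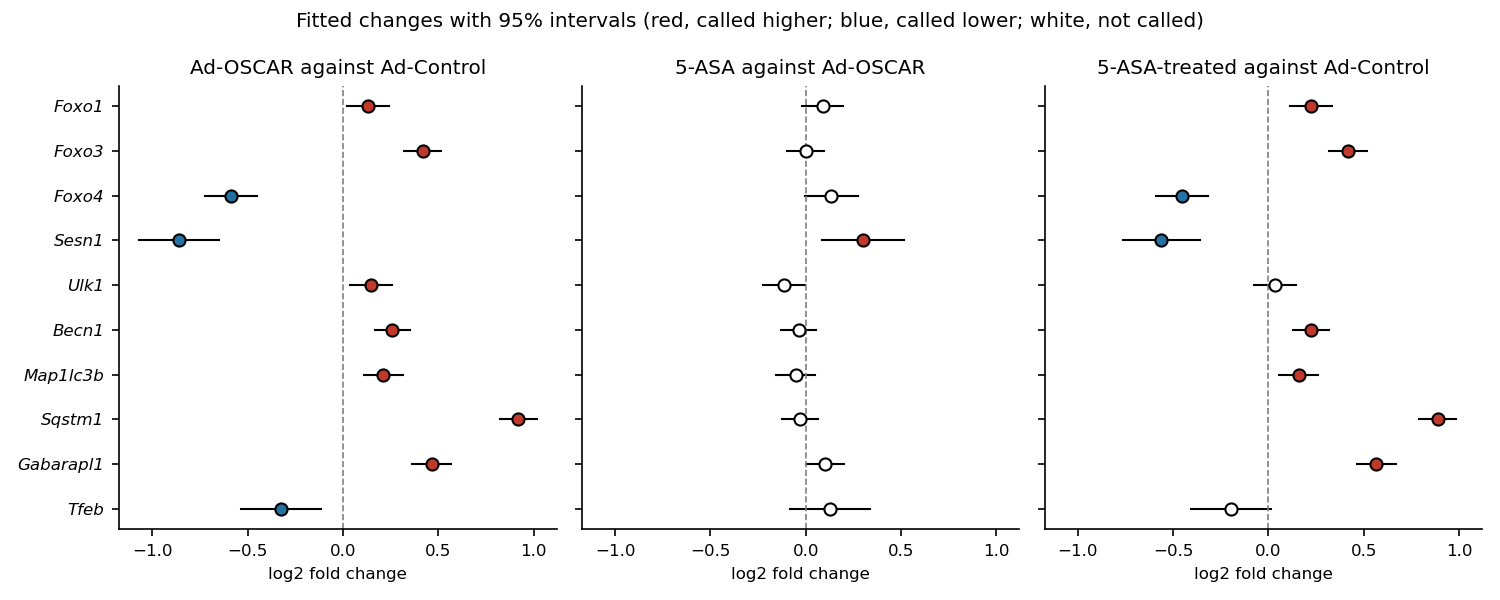
Fitted log2 fold changes (horizontal axes) of the 10 genes in 3 comparisons, with lines for 95% intervals and points coloured red where called higher, blue where called lower and white where not called. In the first panel the points run from -0.86 for *Sesn1* to 0.92 for *Sqstm1*, and in the middle panel, for 5-ASA in Ad-OSCAR cells, from -0.11 for *Ulk1* to 0.30 for *Sesn1*.

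The differences with 5-ASA were thus mostly smaller than those with OSCAR, at a median size of 0.0958 on the log2 scale beside 0.1245 for all genes. Between treated and untreated Ad-OSCAR cultures, CPM values did not overlap for 4 of the 10 genes and for 33.8% of all genes, and 3 of the 10 had an unadjusted p below 0.05, compared with 30.3% of all genes. None passed the study's limits for 5-ASA, which 4.15% of all genes did. The published methods give these limits for treated against Ad-Control cultures, and here they were applied to treated against untreated ones. The widest 95% intervals with TMM scaling were that of *Sesn1*, from 1.06- to 1.43-fold, and that of *Tfeb*, from 0.946- to 1.26-fold, and fits on TPM gave values outside their own intervals for *Ulk1*, *Becn1*, *Map1lc3b* and *Sqstm1*. Compared with Ad-Control, 8 of the 10 genes were still called in the treated cultures, 6 higher and 2 lower (63.2% of all genes, 31.4% higher and 31.8% lower), the exceptions being *Ulk1* and *Tfeb* (-0.20, 95% interval from -0.41 to 0.01). In 8 of 10 the CPM values did not overlap (66.6% of all genes). Each comparison shares 1 group of cultures with each other comparison. *Oscar* was lower with the drug, at 3399 ± 404 CPM against 6665 ± 397 (SD, n = 3), and its part in these differences was not tested. With scaling by total counts, higher genes were 29.5% of all calls for 5-ASA in Ad-OSCAR cells, and 58.5% with TMM. For OSCAR that share was 62.8% and 50.4%, as the median of all genes shifted by 0.13 on the log2 scale. In limma fits on TPM it was 27.4% for 5-ASA, and 39.2% instead of 49.7% for treated cells against Ad-Control. On the TPM scale 3 members, *Ulk1*, *Becn1* (-0.17, adjusted p = 0.0387, limma) and *Map1lc3b* (-0.19, adjusted p = 0.016, limma), were called lower with 5-ASA whereas *Sesn1* was higher (0.20) and not called. The call of *Map1lc3b* carries the limit of the reads divided with *Gm20388*. Both genes summed were at 311.6 CPM on average in Ad-OSCAR and 320.7 with 5-ASA.

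The wider pathway was read from 13 lists holding 198 further genes, of which 194 were tested. With OSCAR 105 rose and 47 fell, together 78.4% of those tested, beside 65.0% of all genes. With 5-ASA in Ad-OSCAR cells 16 rose and 33 fell, or 25.3% beside 17.8%. The counts of each list below stand beside 32.7% of all genes rising and 32.2% falling with OSCAR. With 5-ASA these shares were 10.4% and 7.38%. No list was tested against them.

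Of 22 known FOXO target genes tested, 12 rose and 9 fell with OSCAR, with a median log2 fold change of 0.27 beside 0.02 for all genes. *Sod2*, the mitochondrial superoxide dismutase, rose from 243.5 ± 3.36 to 609 ± 22.3 CPM (SD, n = 3; log2 fold change 1.32), and *Pdk4*, a kinase that restrains pyruvate oxidation, from 2.97 ± 0.469 to 6.37 ± 0.669 (1.096). *Klf2*, a transcription factor gene, fell from 22.4 ± 2.64 to 6.79 ± 0.809 CPM (-1.72), and *Ccnd1*, the cyclin D1 gene that FOXO factors are known to repress, from 94.9 ± 2.51 to 31.9 ± 2.49 (-1.58). All 4 had adjusted p of 9.68e-07 or below by edgeR. With 5-ASA 7 of the 22 rose and 1 fell, *Gadd45a*, a growth arrest gene, rising from 28.6 ± 3.51 to 49.7 ± 4.38 CPM (0.80, adjusted p = 9.35e-07, edgeR). Across the alternative fits 1 to 8 of these genes rose with 5-ASA and 0 to 3 fell. The list is mixed in what its genes do, and a FOXO element was in 13.0% of its 23 promoter windows, those of *Bcl2l11*, *Txnip* and *Trim63*, beside 3.65% of all windows.

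Among 30 genes of PI3K-AKT signalling and other control of FOXO proteins, 8 rose and 10 fell with OSCAR, with a median of -0.02. The alternative fits gave 5 to 15 rising and 8 to 11 falling. With scaling by total counts 15 rose and 8 fell, at a median of 0.11. *Mdm2*, a ubiquitin ligase gene, rose from 103 ± 3.01 to 219.9 ± 14.3 CPM (SD, n = 3; 1.09, adjusted p = 1.45e-12, edgeR) and fell with 5-ASA to 164 ± 3.80 (-0.42, adjusted p = 1.12e-05, edgeR). *Pik3r1*, the p85 regulatory subunit of PI3 kinase, rose with OSCAR by 0.60 and with 5-ASA by 0.20, the latter not on the TPM scale (0.08). *Sgk3* (-0.76) and *Skp2* (-0.71) were the largest falls.

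Of 40 genes of nutrient sensing by mTORC1 and AMPK, 19 rose and 11 fell. *Deptor*, an inhibitor of mTOR, fell from 49.2 ± 1.41 to 7.18 ± 0.286 CPM (SD, n = 3; -2.77, adjusted p = 1.06e-16, edgeR) and was at 9.25 ± 0.465 with 5-ASA (0.36, adjusted p = 0.00297, edgeR, not called on the TPM scale). *Rragd*, a Rag GTPase that brings mTORC1 to lysosomes, rose from 2.06 ± 0.192 to 8.80 ± 1.36 CPM (2.10, adjusted p = 4.29e-09, edgeR) and fell to 4.65 ± 1.03 with 5-ASA (-0.92, adjusted p = 0.000179, edgeR). *Fnip2*, a partner of folliculin at the lysosome, rose from 24.4 ± 0.778 to 46.9 ± 2.19 CPM (0.94) and fell to 33.2 ± 1.46 (-0.50, adjusted p = 3.09e-06, edgeR). With 5-ASA 1 gene of this list rose and 8 fell, and 0 to 2 rose and 5 to 14 fell across the alternative fits.

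In the class III PI3 kinase list 7 of 9 rose and 1 fell, among them *Bcl2*, whose product binds Beclin 1 (8.83 ± 0.547 to 15.7 ± 0.755 CPM, SD, n = 3; 0.82), and *Vmp1* (0.60), while *Rubcn*, the gene of the inhibitor Rubicon, fell (-0.45, adjusted p = 3.36e-07, edgeR). Of 11 ATG8 conjugation enzymes 7 rose and 1 fell. *Atg7*, the E1-like enzyme, rose from 21.2 ± 1.06 to 47.8 ± 2.07 CPM (1.18, adjusted p = 6.62e-12, edgeR), and *Atg3*, the E2-like enzyme, fell from 46.2 ± 1.19 to 33.2 ± 0.899 (-0.48). In the list of ATG9, ATG2 and WIPI genes 4 of 8 rose and 2 fell, *Atg9b* rising (1.12) and *Atg9a*, its more abundant relative, falling from 124 ± 10.7 to 87.6 ± 2.33 CPM (-0.50). Of the 4 further ULK complex genes *Atg101* (0.58) and *Atg13* (0.32) rose and *Ulk2* fell. With 5-ASA few of these passed, with 1 rise (*Bcl2*, 0.39, adjusted p = 0.000656, edgeR, not on TPM) and 4 falls (*Atg101*, -0.26, *Atg7*, -0.23, *Atg9b*, -0.999, and *Atg2a*, -0.29). The call of *Atg2a* was lost in 2 of the 21 alternative fits.

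The 18 further autophagy receptors were divided, 6 rising and 8 falling with OSCAR. The alternative fits gave 4 to 8 rising and 4 to 8 falling. *Retreg1*, a receptor for endoplasmic reticulum, rose from 30.3 ± 0.608 to 54.0 ± 3.11 CPM (SD, n = 3; 0.83, adjusted p = 1.11e-10, edgeR) and *Calcoco1* by 0.47. *Stbd1*, which binds glycogen, fell from 39.8 ± 0.699 to 13.8 ± 0.282 CPM (-1.53, adjusted p = 1.11e-13, edgeR) and was at 18.0 ± 1.01 with 5-ASA (0.39, adjusted p = 0.000268, edgeR). *Bnip3*, a mitophagy receptor, fell from 462.5 ± 19.6 to 294 ± 18.5 CPM (-0.65) and was at 352 ± 30.1 with 5-ASA (0.26, not called on TPM). In the list of autophagosome-lysosome fusion, 9 of 14 rose and 2 fell with OSCAR, including *Vps11* (0.69) and *Tecpr1* (0.69) against the SNARE gene *Ykt6* (-0.35), and 5 fell and 0 rose with 5-ASA, *Vps18* most (-0.36, adjusted p = 0.00216, edgeR). Falls with 5-ASA in this list were 2 to 7 across the alternative fits, in which 0 rose.

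Most of the lysosomal genes known to belong to the TFEB network rose. With OSCAR 29 of 35 rose and 1 fell, at a median log2 fold change of 0.34, and across the alternative fits 26 to 33 rose and 1 fell. *Gla*, alpha-galactosidase A, rose from 18.8 ± 1.24 to 62.6 ± 1.93 CPM (SD, n = 3; 1.74, adjusted p = 7.92e-15, edgeR). *Atp6v0d2*, a proton pump subunit also used by osteoclasts, was at 0.0137 ± 0.0237 CPM in Ad-Control, too low for a fold, and at 1.72 ± 0.214 in Ad-OSCAR. The exception was the serine carboxypeptidase *Scpep1* (275 ± 5.62 to 208 ± 4.47 CPM; -0.40). With 5-ASA 10 of the 35 fell and 2 rose, *Gla* falling to 43.0 ± 1.16 CPM (-0.54, adjusted p = 6.43e-07, edgeR) and *Atp6v1d* from 57.9 ± 2.39 to 43.6 ± 0.972 (-0.41). Across the alternative fits 7 to 16 fell and 0 to 4 rose. The E-box core CACGTG was in 15 of the 30 promoter windows found for this list, beside 7.15% of all windows, in genes such as *Lamp1*, *Ctsd*, *Mcoln1* and *Gla*. The full CLEAR motif was in 1 of the 30, that of *Cln3*. This list was made of genes already known for the network, so its motif share does not bear on the changes seen here. Macrophages are rich in lysosomes, and the summed level of 10 macrophage markers was 20.2 to 25.0 TPM in Ad-Control, 48.5 to 50.2 in Ad-OSCAR and 36.5 to 39.6 with 5-ASA, and of the 5 that could be tested 3 rose and 1 fell with OSCAR. *Cd14* went from 11.9 to 13.5 TPM in Ad-Control to 27.9 to 28.2 in Ad-OSCAR, *Cd68*, which encodes a lysosomal protein, from 2.85 to 4.64 to 13.2 to 13.8, and *Lyz2* from 4.54 to 5.87 to 6.09 to 7.98. *Csf1r* was at 0.18 to 0.37 TPM, *Mrc1* at 0.22 to 0.67 and *Adgre1* at 0 to 0.32 over all cultures, and *Ptprc*, *C1qa*, *C1qb* and *Itgam* had under 3 counts in every culture. The sum of 5 osteoclast markers was at least 23.9 TPM in Ad-Control, and at most 22.47 in Ad-OSCAR and 21.09 with 5-ASA. Of the 3 that could be tested, 2 rose and 1 fell with OSCAR. *Acp5* was at 17.36 to 18.2 TPM in Ad-Control and 11.06 to 12.51 in Ad-OSCAR. *Ctsk* was at 6.18 to 6.99 and 9.68 to 10.52 in the same groups, and *Dcstamp* had under 3 counts in every culture. The part of these macrophage and osteoclast markers in the lysosomal values was not tested.

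**Figure D4:**
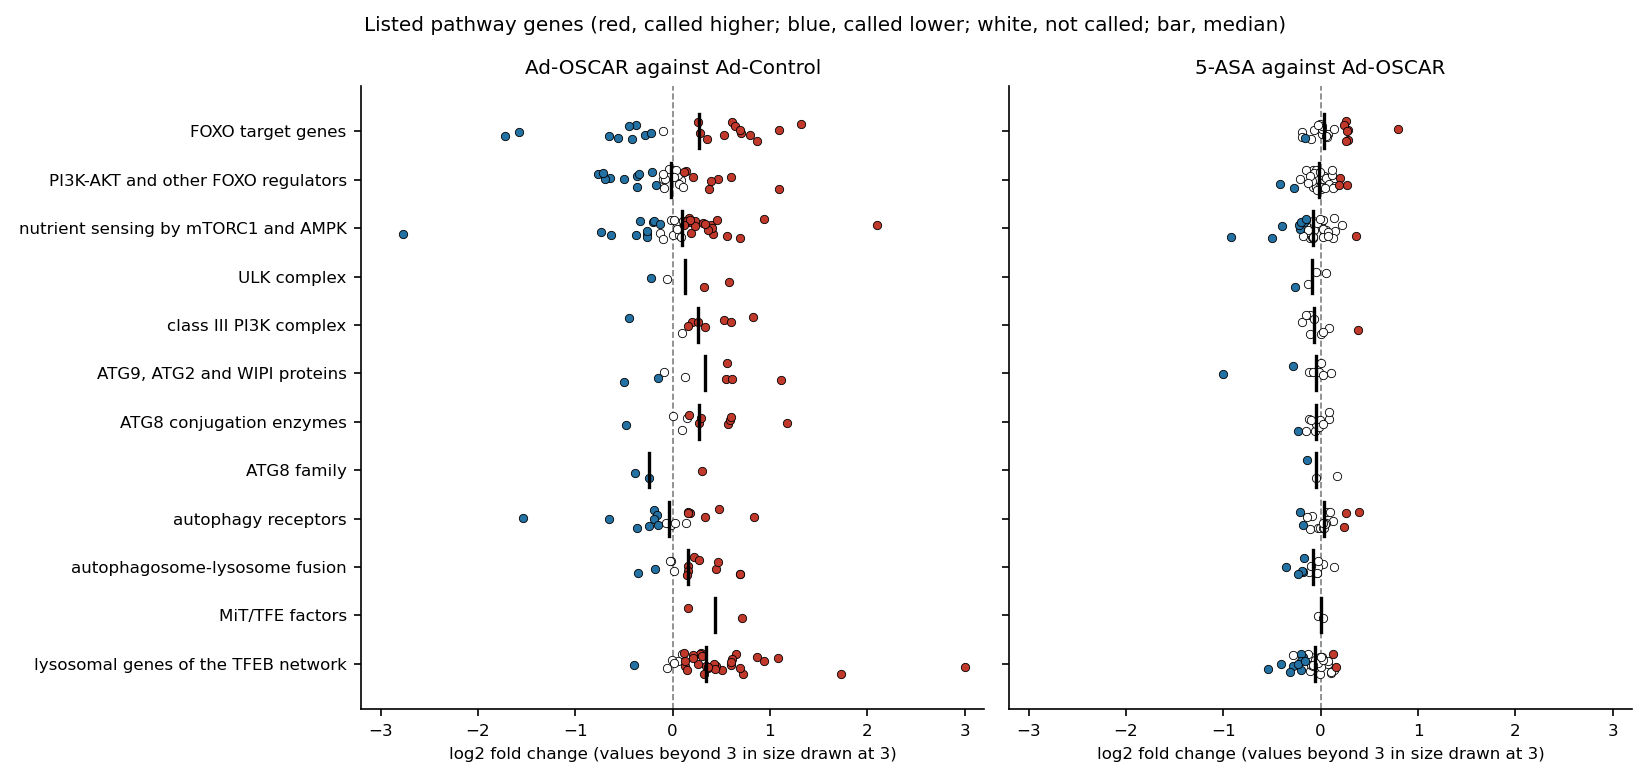
Fitted log2 fold change (horizontal axes, values beyond 3 drawn at 3) of each tested gene in the lists of further pathway genes, for OSCAR expression and for 5-ASA in Ad-OSCAR cells, with a black bar at each list's median. In the first panel 29 of the 35 lysosomal genes are red (called higher) and 1 is blue (called lower), and in the second 2 are red and 10 are blue.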

How the data were processed

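Per the sample annotations and methods, stranded mRNA libraries were aligned to GRCm38 with STAR 2.7.1a and counted with RSEM 1.3.1, the versions being those of the submitters' processing notes. The strand setting is not given in the sources used here. The authors deposited, per gene and culture, expected counts (estimated, not whole, not scaled), TPM made by RSEM and abundance-weighted transcript length. Of 55471 genes, 55230 matched GENCODE M21, the source of symbols and coordinates.

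Expected counts were rounded and tested with edgeR 4.0.16 in R 4.3.3 (TMM, filterByExpr, quasi-likelihood test, 1 fit of 9 cultures by group). The fit had 15362 genes, 6 residual and 17.4 total degrees of freedom for the 95% intervals, and a biological coefficient of variation of 5.11%. Standard errors were taken from the fold change and its F statistic. Within groups, log2 CPM correlated at 0.991 to 0.993. Alternatives used DESeq2 1.42.0, limma 3.58.1 on log2(TPM + 1) or + 0.1 with genes at 1 TPM in 3 cultures, other scalings and filters, and each culture left out, 21 in all. Scaling by total counts was added after the data had been seen. The methods were tested on simulated data. Further software was matplotlib 3.10.9, scipy 1.17.1 and, in Python 3.11.15, pandas 2.3.3 with numpy 2.4.6.

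The members and lists were chosen with earlier results of these data known. Named were all members, their close relatives, and from each list up to 2 genes per direction with the largest called change and at least 1 CPM, and, beyond that rule, *Gm20388*, the marker genes and genes with promoter matches. A further part of the rule, on genes that move like a member with a log2 fold change of 1, named none. Depth sets a floor of 3 counts, for counting error only.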

Additional observations from a re-analysis of the deposited data

How the results depend on the processing

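The direction of every member was the same in all 21 alternatives for OSCAR against Ad-Control, and 7 of the 10 members were called in each of them, the exceptions being *Foxo1* (12 of 21), *Ulk1* (19) and *Tfeb* (19). For 5-ASA in Ad-OSCAR cells, the number of members called was 1, but 0 with upper-quartile scaling, 0 with DESeq2, 3 on log2(TPM + 1) and 3 on log2(TPM + 0.1), and 0 to 1 in the leave-one-out fits. In place of *Sesn1*, the 1 called was *Ulk1* with total counts, *Map1lc3b* on TPM without a filter and *Foxo4* without 5-ASA-treated culture 2. The small differences with 5-ASA changed sign, and the cause was not tested. *Foxo3* was at -0.0084 with upper-quartile scaling, -0.0709 with total counts, -0.0015 without a filter, -0.0023 with at least 10 counts, -0.0051 with only the 2 groups, -0.0003 with the replicate block, and on TPM at -0.0774, -0.0795 and -0.0774 (pseudocount 1, 0.1 and no filter). It ran from -0.0287 to 0.0254 when each culture was left out. *Foxo1* was at -0.0055, -0.0058 and -0.0055 on TPM. *Sqstm1* ran from -0.0572 to 0.0059 over left-out cultures. *Ulk2* was at -0.0148 with total counts and -0.0637, -0.0672 and -0.0637 on TPM. *Mitf* was at -0.042 with total counts, -0.12, -0.13 and -0.12 on TPM, and -0.0033 to 0.0739 over left-out cultures. For treated cells against Ad-Control, *Ulk1* was at -0.046, -0.0471 and -0.046 on TPM and from -0.0139 to 0.07 over left-out cultures. In that comparison the calls of *Foxo1* and *Map1lc3b* each held in 18 of 21 alternatives, and *Tfeb* was called in 1. The replicate numbers did not pair the cultures (mean correlation of deviations -0.021, from -0.072 to 0.040). With the replicate block 10 members were called for OSCAR, 1 for 5-ASA and 8 for treated cells against Ad-Control, as without it. Depth limits *Foxo6* and *Tfec*, which were not tested.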
